A study of Mus musculus with 16 samples.

Results

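The mitochondrially encoded transcripts were taken as every gene symbol in the count table that starts with "mt-". This gave 37 of the 55487 listed genes: 13 messenger RNAs, 2 ribosomal RNAs and 22 transfer RNAs. All 37 were detected. Together they held 1682201 of 53347673 unique molecular identifiers (UMIs, each counting a single captured molecule), or 3.15%. They were followed as the mitochondrial share of all UMIs and as the mix, the percent of mitochondrial UMIs that belongs to each transcript.

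Single cells were dissociated from the spinal cord of 16 mice aged 8-10 weeks, with a planned 2 mice in each of 8 conditions. The cKO mice were Rykfl/fl,GFAPcreERT2 and the WT mice Ryk+/+,GFAPcreERT2, so both genotypes carried the tamoxifen-inducible Cre driven by the human GFAP promoter, which is active in astrocytes, and both received tamoxifen. Mice were uninjured (labelled Sham in GEO) or were taken 1 d, 7 d or 14 d after a spinal cord injury (SCI) at C5. Ryk is a Wnt receptor, and the comparisons ask how its loss from astrocytes and the injury itself alter each cell type. WT 1 d replicate 2 contributed 1 cell and was left out, which left 15 mice with 208 to 1845 cells each.

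Mammalian mitochondria keep a small circular genome that is transcribed from both strands into long precursors. Transfer RNAs lie between most of the other genes and are cut out, which frees the messengers and ribosomal RNAs. The messengers encode core subunits of respiratory complexes I (mt-Nd1 to mt-Nd6 and mt-Nd4l), III (mt-Cytb), IV (mt-Co1 to mt-Co3) and V (mt-Atp6 and mt-Atp8). The ribosomal RNAs mt-Rnr1 and mt-Rnr2 build the mitochondrial ribosome, and all other subunits and the transcription and replication machinery are imported from nuclear genes. In droplet sequencing the mitochondrial share also serves as a quality measure, because a cell with a broken membrane can lose cytoplasmic RNA and keep its mitochondria.

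The authors kept cells with less than 25% mitochondrial UMIs, so the share has a ceiling by construction. The highest cell was at 24.99%, and 590 of 18203 cells (3.24%) lay between 20 and 25%. The median cell was at 3.07%, and 53 cells had no mitochondrial UMI.

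Several features of the libraries bear on every value below. Total UMIs ranged from 536263 to 9008729 per mouse. In 4 mice, the replicate 1 mice of WT 1 d, cKO 1 d, WT 7 d and cKO 7 d, the median cell had 414 to 548 UMIs, against 1040.5 to 3637 in the other 11. These 4 mice shared 28 to 115 cell barcodes in each of their 6 pairs, whereas no other pair of mice shared more than 4. Of 341 matched cell pairs, 92.4% lay in the same cluster. The condition written in the cell names differed from the sample title in 6 mice, all replicate 2, and the titles were used here. Ryk itself lay at 54.0 to 157 CPM (UMIs per 1000000 UMIs of the mouse's cells in the class) in WT astrocytes (7 mice) and 23.0 to 123 in cKO astrocytes (8 mice). The sources used here do not say whether the counted 3′ end lies in the deleted part, so this is no check of the knockout.

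The 17 clusters were those deposited by the authors. Their defining markers were more than 2-fold above all other cells for every tested marker in 14 of 17 clusters. The exceptions were Cluster 2, labelled astrocytes, at 3 of 6 astrocyte markers, Cluster 5 at 5 of 6, and Cluster 10, labelled microglia, at 3 of 5 microglial markers. Cluster 13, labelled unknown, passed for 3 of 3 ependymal markers.

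The members were counted at very unequal levels. Ribosomal RNAs made up 54.9% of mitochondrial UMIs, messengers 43.2% and transfer RNAs 1.92%. Per base of transcript, mt-Rnr2 (chrM:1094-2675) led with 414 UMIs, followed by mt-Rnr1 (chrM:70-1024) with 280, mt-Atp8 (chrM:7766-7969) with 267 and mt-Cytb (chrM:14145-15288) with 161. A UMI counts 1 molecule whatever its length, so values per base favour short transcripts and are not levels of molecules. By UMIs, mt-Rnr2 (655426) and mt-Rnr1 (267261) led, then mt-Cytb (184466), mt-Nd2 (133478) and mt-Nd1 (103126). By that count mt-Atp8 (54555), with 204 bases, ranked 8. Among complex I messengers, the value per base was 129 for mt-Nd2, 108 for mt-Nd1, 69.5 for mt-Nd4, 65.2 for mt-Nd3, 23.8 for mt-Nd5, 12.7 for mt-Nd6 and 11.2 for mt-Nd4l. The complex IV messengers lay at 41.4 for mt-Co1, 5.13 for mt-Co3 and 3.02 for mt-Co2, and mt-Atp6 of complex V lay at 14.2. All coordinates are on GRCm38. The 9 genes on the light-strand side, mt-Nd6 and 8 transfer RNAs, held 1.17% of mitochondrial UMIs.

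Genome copies limit how some of these levels can be read. Nuclear DNA carries fossil copies of mitochondrial DNA, and Cell Ranger counts a read only where it maps to 1 gene. For 5 messengers, mt-Co2, mt-Atp6, mt-Co3, mt-Nd3 and mt-Nd4l, a gene on chromosome 1 matches over 95% of the length without a mismatch. Their levels were 3.02 to 65.2 UMIs per base, and the 8 other messengers lay at 12.7 to 267. The matching nuclear genes held 153 UMIs together. Among those 8, mt-Co1 and mt-Nd4 also have partial copies on chromosome 1. These are Gm29216 (longest exact run 479 bases, 87 UMIs) for mt-Co1 and Gm28439 (876 bases, 17 UMIs) for mt-Nd4. The part of any copy in the counts was not tested, so the 5, and also mt-Co1 and mt-Nd4, are uncertain as levels. mt-Co2 and its copy Gm28661 (chr1:24614885-24615565) are shown because their 3′ ends, where this assay reads, have 0 differences over the last 90 aligned bases:

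mt-Co2: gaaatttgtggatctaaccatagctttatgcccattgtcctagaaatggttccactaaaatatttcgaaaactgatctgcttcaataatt

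Gm28661: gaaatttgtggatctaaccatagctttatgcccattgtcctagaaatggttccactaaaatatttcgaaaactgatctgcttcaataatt

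The contrast is mt-Cytb, whose closest copy Gm11410 (chr4:80003989-80005131) has 92.9% identity. Capitals mark the 6 bases that differ in the same stretch, and mt-Cytb was the messenger with the most UMIs (184466):

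mt-Cytb: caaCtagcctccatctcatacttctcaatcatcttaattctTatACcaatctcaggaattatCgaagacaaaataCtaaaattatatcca

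Gm11410: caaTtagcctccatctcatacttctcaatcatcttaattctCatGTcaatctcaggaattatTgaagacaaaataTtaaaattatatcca

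Neighbours also overlap: mt-Atp8 and mt-Atp6 share 43 bases, mt-Nd4l runs into mt-Nd4, and mt-Nd5 and mt-Nd6 meet on opposite strands. Reads in such stretches can be credited to either gene or to none.

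The assay primes on poly(A), yet transfer RNAs were counted. The most abundant were mt-Ts2 (chrM:11613-11671) with 4866 UMIs, mt-Ta (chrM:5018-5086) with 4077, mt-Tm (chrM:3845-3913) with 2796 and mt-Tc (chrM:5192-5257) with 2605. The lowest was mt-Ty with 52. Of these, mt-Ts2, mt-Ta and mt-Tc return in the description of the mix and are printed with the anticodon in capitals:

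mt-Ts2: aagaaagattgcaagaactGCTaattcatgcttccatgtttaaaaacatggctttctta

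mt-Ta: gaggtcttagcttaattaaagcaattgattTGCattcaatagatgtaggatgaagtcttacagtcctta

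mt-Tc: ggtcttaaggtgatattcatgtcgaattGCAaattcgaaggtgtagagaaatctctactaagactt

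These carry serine, alanine and cysteine to the mitochondrial ribosome. The next in number were mt-Tn with 2419 UMIs, mt-Tv with 2399 and mt-Tw with 2284, and mt-Td, mt-Ts1 and mt-Tp held 1035 to 1238 each. The remaining 12 members, all transfer RNAs, had under 1000 UMIs each and held 0.443% of mitochondrial UMIs together. Of those 12, only mt-Tl1 is given values of its own below.

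The mitochondrial share differed most between clusters, and the astrocytes split in this respect. Over mice with at least 10 cells of the cluster, Cluster 2 astrocytes lay at 12.5 ± 2.58% (SD, n = 11 mice) and Cluster 5 astrocytes at 9.60 ± 2.28% (n = 14). Cluster 7 astrocytes lay at 4.10 ± 1.30% (n = 15). Every cluster other than 2 and 5 had a mean at or below this value.

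Within the same mouse, Cluster 2 exceeded Cluster 7 in 11 of 11 mice, with 2.93-fold as the mean ratio, and Cluster 5 exceeded Cluster 7 in 14 of 14, by 2.25-fold. Cluster 2 lay above Cluster 5 in 9 of 11 mice. The ceiling touched both: 16.2% of Cluster 2 cells and 10.98% of Cluster 5 cells lay between 20 and 25%, against at most 2.83% in any other cluster. Their mean levels are therefore levels below the ceiling. The marker counts above, 3 of 6 for Cluster 2 and 6 of 6 for Cluster 7, go with this order, and their part in it was not tested.

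**Figure D1:**
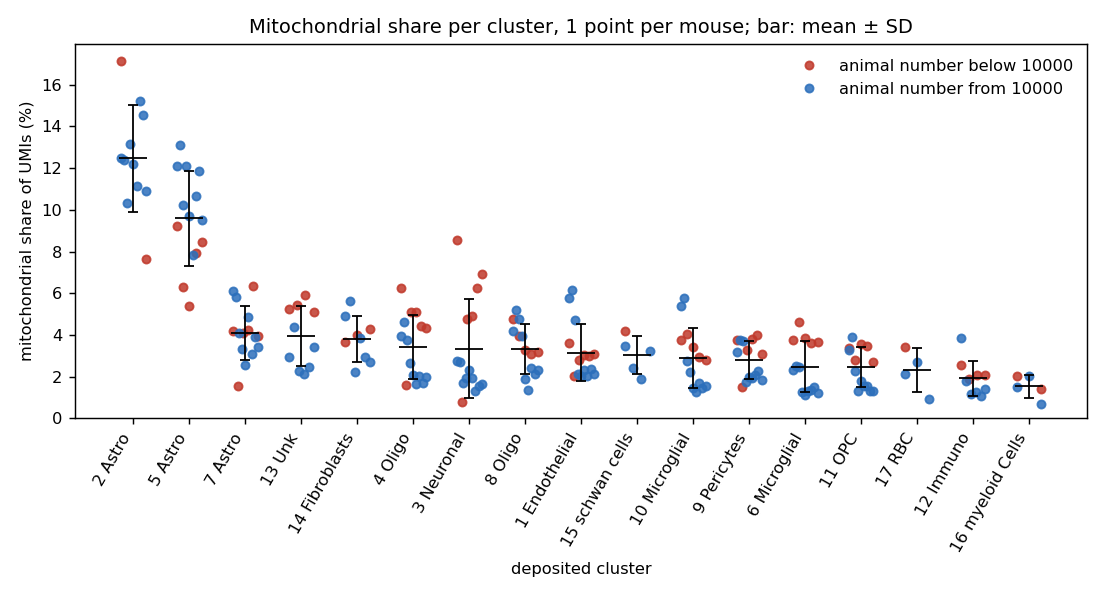
Mitochondrial share of UMIs (percent, vertical axis) in each deposited cluster (horizontal axis, ordered by mean), with 1 point per mouse, red for animal numbers below 10000 and blue from 10000. Bars give mean ± SD; Cluster 2 at 12.5% and Cluster 5 at 9.60% stand above the 15 other clusters.

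At the low end stood the blood-borne cells. Myeloid cells of Cluster 16, which carried 3 of 3 neutrophil markers, had the lowest mean share at 1.54 ± 0.55% (n = 5 mice), immune cells of Cluster 12 lay at 1.92 ± 0.83% (n = 10), and red blood cells of Cluster 17 at 2.30 ± 1.06% (n = 4). Mature mammalian red blood cells lack mitochondria. In the 3 mice in which both could be measured, Cluster 16 lay below Cluster 17 in 3 of 3. In Cluster 17 all 4 red blood cell markers passed.

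The other types lay close together. Ependymal-marked Cluster 13 had a share of 3.94 ± 1.45% (n = 10), fibroblasts 3.80 ± 1.08% (n = 9), oligodendrocytes 3.42 ± 1.54% (Cluster 4, n = 15) and 3.32 ± 1.20% (Cluster 8, n = 14), neurons 3.34 ± 2.37% (n = 15) and endothelial cells 3.15 ± 1.36% (n = 15). Schwann cells were at 3.03 ± 0.89% (n = 5), microglia at 2.90 ± 1.45% (Cluster 10, n = 14) and 2.47 ± 1.22% (Cluster 6, n = 14), pericytes at 2.79 ± 0.90% (n = 15) and oligodendrocyte precursors at 2.44 ± 0.96% (n = 14). Neighbours in this order differed by less than their SD. Clusters were made from the expression of these same cells, so no test was run between them.

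Between mice the share also moved. Over all cells it ran from 1.53% in cKO uninjured replicate 1 to 7.17% in cKO uninjured replicate 2, which are 2 mice of the same condition. WT uninjured replicate 2 was at 6.52%, the 4 mice that share barcodes at 3.61 to 3.99%, and the 7 d and 14 d mice with animal numbers from 10000 at 2.38 to 2.68%. The animal number in the titles goes partly with condition: no mouse below 10000 was taken at 14 d.

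The mix was a different matter, since it followed the mouse more than the cell type. Ribosomal RNA made up 73.0% and 74.2% of mitochondrial UMIs in the uninjured replicate 2 mice of WT and cKO, and 63.8% in cKO 1 d replicate 2. In the 4 mice that share barcodes it made up 26.5 to 32.8%, and in cKO uninjured replicate 1 it made up 26.3%. The remaining 7 mice lay between 48.5 and 61.3%. The messengers took nearly all of the difference, with 24.5% in cKO uninjured replicate 2 and 73.2% in cKO 1 d replicate 1.

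Single messengers set particular mice apart. mt-Nd3, a small complex I subunit, held 5.93% of mitochondrial UMIs in WT 1 d replicate 1, 7.52% in cKO 1 d replicate 1 and 7.68% in cKO 7 d replicate 1. WT 7 d replicate 1 was at 1.499%, and the 11 other mice lay between 0.156 and 1.64%. The mt-Nd3 share thus separated 3 of the 4 barcode-sharing mice from all others, and the fourth lay with the rest.

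mt-Atp8, the smallest messenger, went the other way. It held 0.591 to 0.889% in the 4 mice and 2.35 to 4.45% in the other 11, with no overlap. mt-Nd4 held 11.9 to 13.7% in the 4 and 2.64 to 7.66% in the others. mt-Atp6 was low in WT uninjured replicate 1 (0.108%) and WT 14 d replicate 1 (0.142%) and reached 1.33% in WT 7 d replicate 1. Leaving out cells whose barcode also occurred in another mouse was checked for mt-Nd3 and mt-Atp8 and moved them little: in WT 1 d replicate 1 mt-Nd3 went from 5.93 to 6.13%, and mt-Atp8 from 0.853 to 0.847%.

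Transfer RNAs varied widely among mice. They held 6.99% of mitochondrial UMIs in cKO uninjured replicate 1 and 5.08% in cKO 1 d replicate 2, against 0.359% in WT uninjured replicate 1 and 0.367 to 0.695% in the 4 mice. In cKO uninjured replicate 1, mt-Ts2 alone held 1.48% and mt-Ta 1.09%. That mouse had 208 cells, the fewest of the 15.

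**Figure D2:**
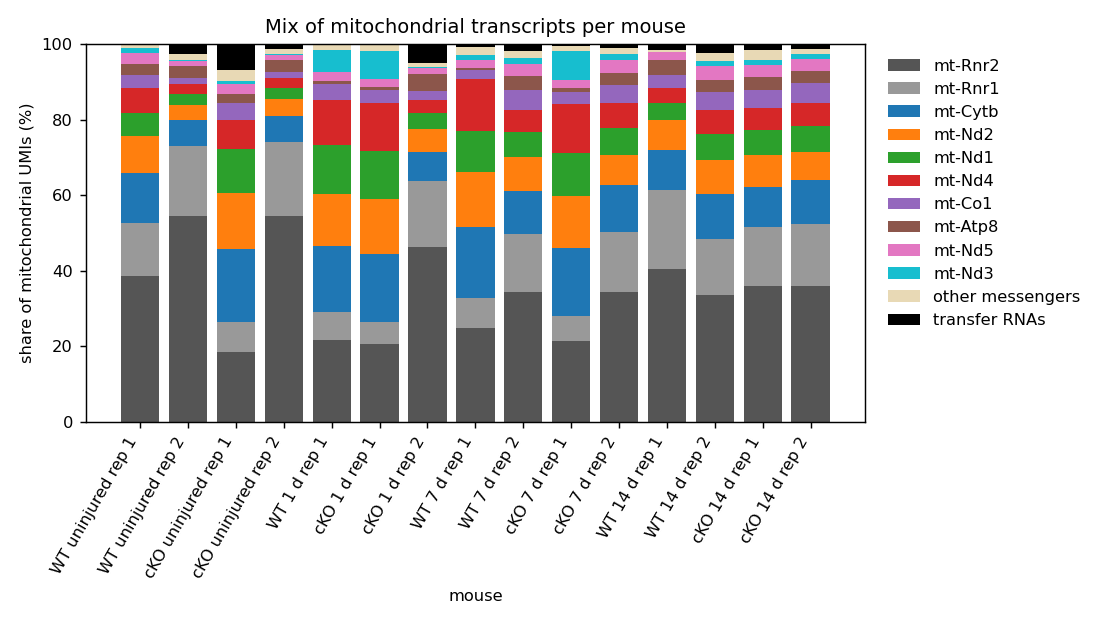
Stacked bars of the mix in each of 15 mice (horizontal axis), each segment a transcript's percent of mitochondrial UMIs (vertical axis), greys for the ribosomal RNAs and black for the transfer RNAs together. The grey part reaches 73.0 and 74.2% in both uninjured replicate 2 mice and stays at or below 32.8% in the 4 mice that share barcodes.

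To put mouse and cluster side by side, the spread of log2 values over 195 combinations of cluster and mouse was divided between them. The total share went mostly with cluster (60.3%) and less with mouse (23.5%). Each of the 25 members with at least 1000 UMIs went the other way, with more of its spread on the mouse, at a median of 64.7% against 8.79% for the cluster. mt-Nd3 was highest, with 87.5% of its spread on the mouse. Without the 4 mice that share barcodes the mouse part was larger for 24 of 25 members, and among mice numbered from 10000 alone for 21 of 25, where the medians were 49.2% and 19.7%. Each mouse was deposited as its own sample, the sources used here do not say which libraries were prepared or sequenced together, and animal and library cannot be told apart.

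**Figure D3:**
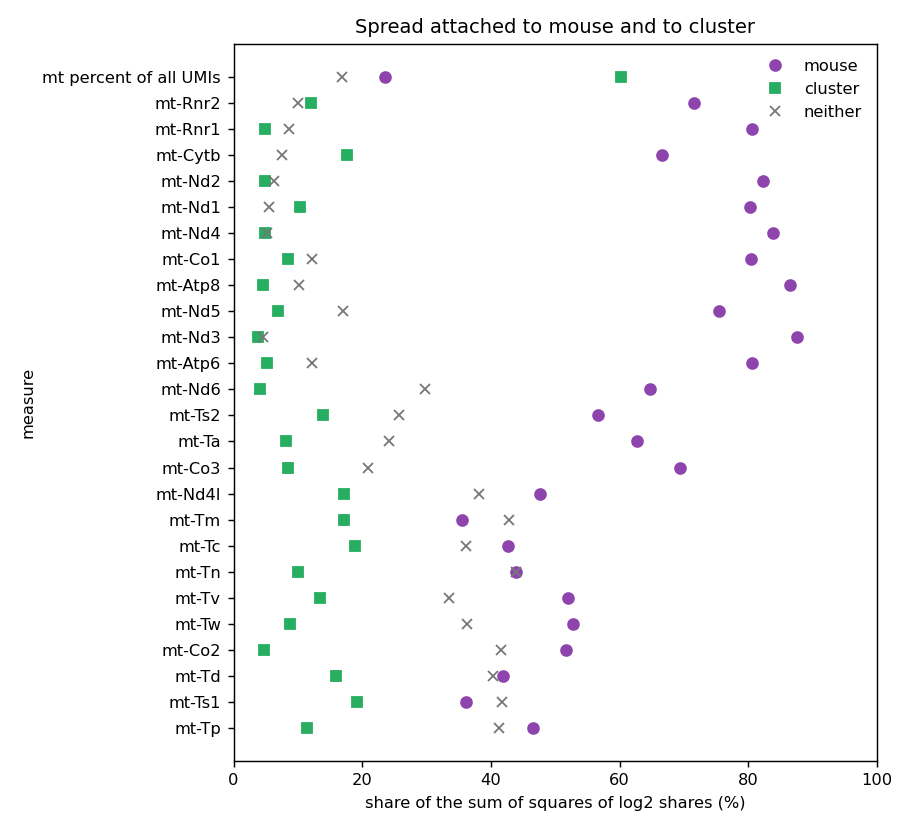
Percent of the sum of squares of log2 values (horizontal axis) that goes with mouse (circles), with cluster (squares) or with neither (crosses), for the total mitochondrial share and for 25 transcripts (vertical axis). Only the total share, at 60.3% for cluster, has its larger part on the cluster.

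Cell types nevertheless differed in mix once each was set against its own mouse. Cluster 13, with the ependymal markers, differed most among clusters measured in at least 10 mice. Its mt-Cytb part was 1.52-fold that of the whole mouse (log2 0.60 ± 0.17, SD over mice) and higher in 10 of 10 mice, and mt-Nd4 was 1.44-fold and mt-Nd5 1.32-fold, each in 10 of 10. mt-Rnr2 was lower in 10 of 10 (log2 −0.66 ± 0.50) and mt-Nd1 also (−0.38 ± 0.17). The transfer RNAs lay at 0.505-fold, lower in 10 of 10. Against endothelial cells of the same mice, mt-Cytb held 20.3 ± 7.24% in Cluster 13 and 10.4 ± 2.79% in the endothelial cells.

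Endothelial cells differed from Cluster 13 in the direction of several members. Their ribosomal RNA part was higher than that of the whole mouse in 15 of 15 mice, although by a small step (log2 0.19 ± 0.21). mt-Cytb (−0.30 ± 0.15) and mt-Nd4 (−0.28 ± 0.13) were lower in 15 of 15. mt-Nd1 was lower in 14 of 15 (−0.15 ± 0.15), the same direction as in Cluster 13, and mt-Nd2 was higher in 10 of 15 and in 10 of 10 of Cluster 13. Their transfer RNA part was 1.41-fold, higher in 14 of 15 mice. mt-Tc, for cysteine, held 0.312 ± 0.285% of their mitochondrial UMIs and 0.0489 ± 0.0627% of those of Cluster 7 astrocytes, higher in 14 of 15 mice.

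mt-Nd1 (chrM:2751-3707), a complex I core subunit, differed in direction between cell types. It was higher than in the whole mouse in neurons in 15 of 15 mice (log2 0.31 ± 0.15) and in Cluster 10 microglia in 13 of 14 (0.37 ± 0.26), and also in Cluster 4 oligodendrocytes in 14 of 15 (0.16 ± 0.14), while Cluster 8 oligodendrocytes were split, higher in 7 of 14 (−0.01 ± 0.21). It was lower in Cluster 7 astrocytes in 15 of 15 (−0.41 ± 0.17) and in Cluster 5 astrocytes in 14 of 14 (−0.19 ± 0.15), while Cluster 2 astrocytes were split, lower in 7 of 11 (−0.07 ± 0.15). Directly compared, mt-Nd1 held 9.84 ± 4.97% in Cluster 10 and 5.54 ± 2.70% in Cluster 7, with Cluster 10 higher in 14 of 14 mice. Cluster 10 carried 3 of 5 microglial markers, but Cluster 6, with 5 of 5, also lay above Cluster 7 in 14 of 14 mice. The other immune types did not follow the microglia: mt-Nd1 was lower than in the whole mouse in Cluster 16 myeloid cells in 3 of 3 mice (−0.70 ± 0.29), where it lay below Cluster 6 in 5 of 5, and Cluster 12 immune cells were split, higher in 5 of 10.

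Oligodendrocytes of both clusters leaned to messengers. In Cluster 4 the messenger part was above that of the whole mouse in 15 of 15 mice (log2 0.16 ± 0.06) and the ribosomal part below it in 15 of 15 (−0.20 ± 0.13). In Cluster 8 the messenger part was higher in 12 of 14 (0.13 ± 0.13) and the ribosomal part lower in 12 of 14 (−0.19 ± 0.20). mt-Cytb was higher in 15 of 15 mice in Cluster 4 and in 11 of 14 in Cluster 8, and mt-Nd3 in 14 of 15 (0.30 ± 0.24) and 12 of 14 (0.46 ± 0.37). Cluster 2 astrocytes differed from their mice by a low mt-Atp8 (−0.40 ± 0.29, lower in 11 of 11) and a high transfer RNA part, higher in 10 of 11.

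**Figure D4:**
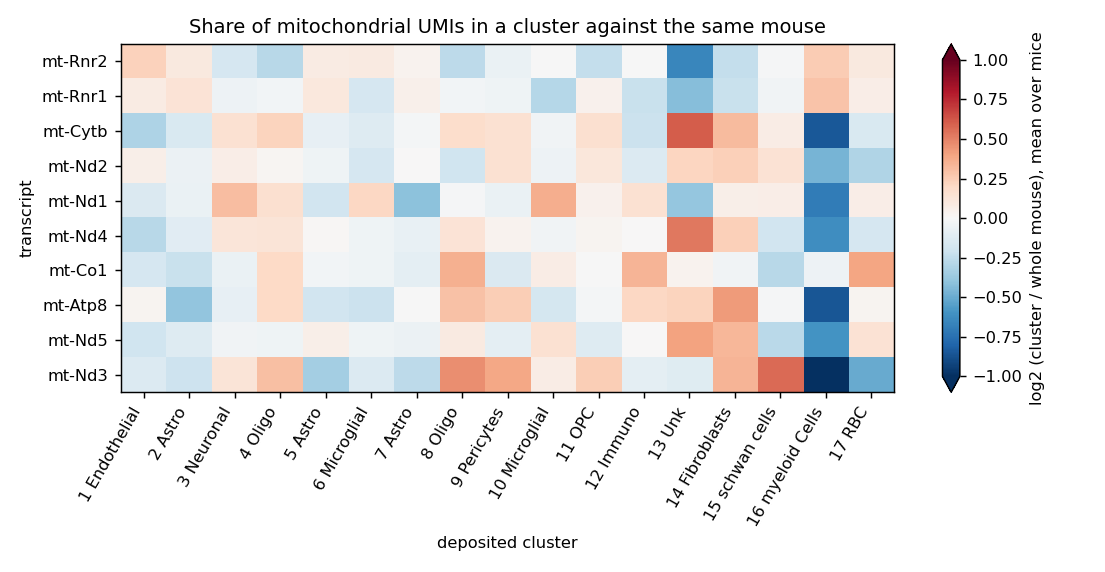
Mean over mice of log2 (transcript's percent of mitochondrial UMIs in the cluster over that in the whole mouse), by transcript (vertical axis) and cluster (horizontal axis), red above and blue below the mouse. Cluster 13 stands out with mt-Cytb at 0.60 and mt-Rnr2 at −0.66; Clusters 15 to 17 rest on 3 or 4 mice.

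Depth moved with the share inside clusters. The rank correlation between a cell's share and its UMIs was negative in 15 of 15 mice in endothelial cells and in 14 of 14 in Cluster 10, but in 3 of 11 in Cluster 2 and 6 of 15 in Cluster 7. Across the 17 cluster means, which share libraries, the share had a Spearman rho of 0.15 with the median UMIs per cell and 0.061 with the percent of UMIs from Malat1, a nuclear RNA. The pair of clusters with the highest share nevertheless had the lowest Malat1, with 0.300% of UMIs in Cluster 2 and 0.570% in Cluster 5, against 0.898 to 4.08% in the 15 others. These are descriptions of cells and clusters, and the parts of depth and of RNA quality in the cluster order were not tested.

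The injury comparison asks whether members changed when the 11 injured mice were set against the 4 uninjured ones. UMIs were summed per mouse and cell class and fitted with edgeR over all genes. This contrast, like those for genotype and for the total share below, averaged the means of conditions rather than mice. WT 1 d replicate 1, alone in its condition, therefore carried the weight of a whole condition. No member was called at adjusted p under 0.05 in any of 5 classes. The tested members numbered 36 in astrocytes (Clusters 2, 5 and 7), 30 in microglia (Clusters 6 and 10), 34 in endothelial cells, 32 in oligodendrocytes (Clusters 4 and 8) and 28 in neurons. Over all genes the percent called was 0 in astrocytes, endothelial cells and oligodendrocytes, 0.129 in microglia and 0.00977 in neurons. At an unadjusted p under 0.05 edgeR counted 12 members in astrocytes, 3 in microglia, 20 in endothelial cells, 6 in oligodendrocytes and 4 in neurons. Over all genes the same threshold took 5.93, 10.2, 7.13, 6.41 and 8.92% in that order, so that the microglial 3 of 30 lay at the share of all genes. DESeq2 called 3 in microglia, mt-Atp8, mt-Rnr1 and mt-Rnr2, all lower, and 0 in the other 4 classes. Its percent called over all genes was 0.766 in microglia, 0.0232 in oligodendrocytes and 0 in astrocytes, endothelial cells and neurons. The count of 0 by edgeR depended on the filter and on single mice. With no filter on low counts edgeR called 8 members in astrocytes, 4 in microglia, 21 in endothelial cells, 1 in oligodendrocytes and 2 in neurons, against 0.283, 0.459, 0.566, 0.209 and 0.0574% of all genes. Without WT uninjured replicate 1 it called 7 in astrocytes and 8 in endothelial cells, against 0.66 and 0.713% of all genes.

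The fitted differences of members leaned downward in most classes. The median member lay at log2 −1.47 in astrocytes, −1.43 in endothelial cells, −0.99 in oligodendrocytes and −1.22 in neurons, where all tested genes had medians of −0.18, −0.07, −0.02 and −0.82. The neuronal medians of members and of all genes were both smaller in size with the DESeq2 size factors, at values given with the genotype comparison. In microglia the median member was at −0.09 and all genes at 0.09. The 13 messengers alone had medians of −0.11 in astrocytes, −0.36 in endothelial cells, −0.18 in oligodendrocytes, −0.28 in neurons and 0.03 in microglia, while those of the transfer RNAs were −1.96, −1.78, −1.13, −1.31 and −0.18. The 2 ribosomal RNAs were below 0 in all 5 classes, microglia included, with medians of −1.37, −1.45, −1.48, −1.23 and −1.33 in that order.

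The microglial ribosomal RNAs and mt-Atp8 had the smallest adjusted p among members. mt-Rnr2 lay at 15421, 15970 and 19021 CPM in the 3 uninjured mice with enough microglia, and at 4910 (lowest), 6666 (median) and 11367 (highest) in the 11 injured mice. The groups did not overlap, and the highest injured mouse was cKO 1 d replicate 2. The uninjured mice include WT and cKO uninjured replicate 2, which had the highest ribosomal part over all their cells (73.0 and 74.2% of mitochondrial UMIs). The share of all genes without overlap between these groups was not computed. mt-Rnr2 differed by log2 −1.38 ± 0.33 (SE, edgeR adjusted p = 0.0903) and mt-Rnr1 by −1.28 ± 0.31 (edgeR adjusted p = 0.109), so neither passed. For mt-Rnr1 the groups overlapped, at 3792, 5251 and 6271 CPM uninjured and 1665 (lowest), 2060 (median) and 4064 (highest) injured, through the same mouse, cKO 1 d replicate 2.

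mt-Atp8 in microglia lay at 939, 1179 and 1300 CPM in the uninjured mice and at 200, 333 and 1251 (lowest, median and highest) in the injured mice. Here too the groups overlapped through a single mouse, cKO 1 d replicate 2, and the other 10 injured mice were at or below 496. The log2 difference was −1.62 ± 0.38 (SE, edgeR adjusted p = 0.0903). Without that mouse edgeR called 1 microglial member, against 0.0985% of all genes.

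In microglia the kinds were also summed apart. Ribosomal RNA took 1.92 to 2.53% of all UMIs in the 3 uninjured mice and 0.658 to 1.54% in the 11 injured mice. From 10000 the values were 2.12 and 2.53% against 0.658 to 1.54%, and below 10000 they were 1.92% in a single uninjured mouse, WT uninjured replicate 1, against 0.859 to 1.00%. The fourth uninjured mouse, cKO uninjured replicate 1, had too few microglia for a value, and the gap is one without it. In the other 4 classes its ribosomal RNA lay below that of every injured mouse, at 0.645% in astrocytes, 0.587% in endothelial cells, 0.322% in oligodendrocytes and 0.223% in neurons. The other 3 uninjured mice lay above all injured mice in oligodendrocytes (2.75, 2.82 and 3.49% against at most 2.46%) and in neurons (1.83, 1.84 and 4.06% against at most 1.78%) as well, but not in astrocytes or endothelial cells. Messengers took 0.766 to 1.85% in the uninjured and 0.494 to 3.42% in the injured mice, with the groups overlapping. From 10000 they lay at 0.766 and 0.831% uninjured, with 6 of 7 injured mice below both (0.494 to 0.728%) and cKO 1 d replicate 2 above both (0.935%), and below 10000 they ran the other way, at 1.85% against 2.35 to 3.42%. In place of the titles, the conditions in the cell names would move the 2.53% mouse, cKO uninjured replicate 2, to the injured side. The microglial ribosomal ranges would then overlap, and the oligodendrocyte gap would be lost as well, since that mouse had 3.49% there. In neurons the mice at 1.84 and 4.06% would still lie above all injured mice (at most 1.83%).

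In the other classes the members with the smallest p in the same contrast were mt-Co2 in endothelial cells and astrocytes, mt-Tm in oligodendrocytes and mt-Atp8 in neurons. mt-Co2, a complex IV core subunit, lay in endothelial cells at 7.78, 115, 115 and 135 CPM uninjured and at 13.6, 24.0 and 46.6 (lowest, median and highest) injured. The lone low uninjured mouse was WT uninjured replicate 1. The log2 difference was −2.06 ± 0.53 (SE, edgeR adjusted p = 0.663), and without WT uninjured replicate 2 it was −0.38. In astrocytes mt-Co2 differed by −1.73 ± 0.57 (edgeR adjusted p = 0.834), and this direction turned to 0.22 without WT uninjured replicate 2. Both concern the messenger whose end is shared with Gm28661.

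mt-Tm, the methionine transfer RNA, lay in oligodendrocytes at 45.1 to 69.8 CPM in the 4 uninjured mice and at 0, 23.7 and 148 (lowest, median and highest) in the injured mice, with overlap. Its log2 difference was −2.23 ± 0.81 (SE, edgeR adjusted p = 0.771), with −1.10 without WT 1 d replicate 1 and −3.65 without cKO 1 d replicate 2. mt-Atp8 in neurons ran from 211 to 2170 CPM uninjured and from 0 to 830 injured. Its log2 difference was −2.97 ± 0.73 (SE, edgeR adjusted p = 0.204), with −1.13 without WT 1 d replicate 1 and −1.93 without cKO uninjured replicate 2. The value of 0 came from WT 1 d replicate 1, which had 18 neurons and 7570 neuronal UMIs.

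Animal numbering mattered for these counts. Within the 9 mice numbered from 10000, a comparison added after the data were seen that sets 2 uninjured against 7 injured mice, edgeR called 26 of 36 members in astrocytes, 16 of 36 in endothelial cells and 8 of 35 in neurons, all lower, against 15.3, 2.11 and 4.59% of all genes. It called 0 members in microglia and oligodendrocytes, where 0.00941 and 0.203% of all genes were called. With the numbering as a term over all mice the counts were 8 in astrocytes, 3 in endothelial cells, 1 in oligodendrocytes, 7 in neurons and 0 in microglia, against 1.38, 0.455, 0.661, 4.2 and 0.345% of all genes. mt-Atp8 was among the called members in 4 of those 5 classes. The 2 uninjured mice numbered from 10000 are the pair with the highest ribosomal part, so the counts within that numbering rest on those 2 libraries.

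The total share, given as a description with no test, was lower on average in injured mice in all 5 classes, with wide errors. Injured minus uninjured was −1.69 ± 0.81 percentage points (SE) in endothelial cells, −1.21 ± 1.72 in astrocytes, −0.89 ± 0.67 in oligodendrocytes, −0.83 ± 0.60 in microglia and −0.35 ± 1.48 in neurons. Over all mice the ranges of the groups overlapped in all 5 classes. Among mice numbered from 10000 both uninjured mice lay above all injured mice in astrocytes, microglia, endothelial cells and neurons, but not in oligodendrocytes. Below 10000 the ranges overlapped in every class. With only mice numbered from 10000 the astrocyte and endothelial differences were larger in size, at values given in the last section. Single uninjured mice decided several of the differences over all mice. The astrocyte difference was 0.87 without cKO uninjured replicate 2, 0.22 without WT uninjured replicate 2, −3.29 without cKO uninjured replicate 1 and −2.64 without WT uninjured replicate 1. The neuronal difference was 1.10 without WT uninjured replicate 1 and −1.81 without WT uninjured replicate 2, and leaving out other single mice also moved it within that range. Without cKO uninjured replicate 1 the endothelial difference was −2.72 and the oligodendrocyte difference −1.70, and without cKO uninjured replicate 2 they were −0.66 and −0.077. The oligodendrocyte difference was −0.46 without WT uninjured replicate 1. In microglia it stayed between −1.24 and −0.57. Messengers alone gave −0.07 in endothelial cells, 0.52 in microglia, 0.37 in oligodendrocytes, 0.78 in astrocytes and 0.57 in neurons, pooled over both sides of the animal numbering. Endothelial ribosomal RNA ran from 0.587 to 4.63% of all UMIs in uninjured and from 1.03 to 3.19% in injured mice, and the endothelial messengers from 1.22 to 1.45% and from 0.800 to 1.83%. The endothelial messengers went opposite ways on the 2 sides of the numbering: from 10000 they lay at 1.40 and 1.45% uninjured against 0.800 to 1.32% injured, and below 10000 at 1.22 and 1.36% against 1.61 to 1.83%, both without overlap. These ranges rest on 2 uninjured mice against 7 injured ones from 10000, and on 2 against 4 below 10000. The latter 4 are the shallow mice that share barcodes.

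**Figure D5:**
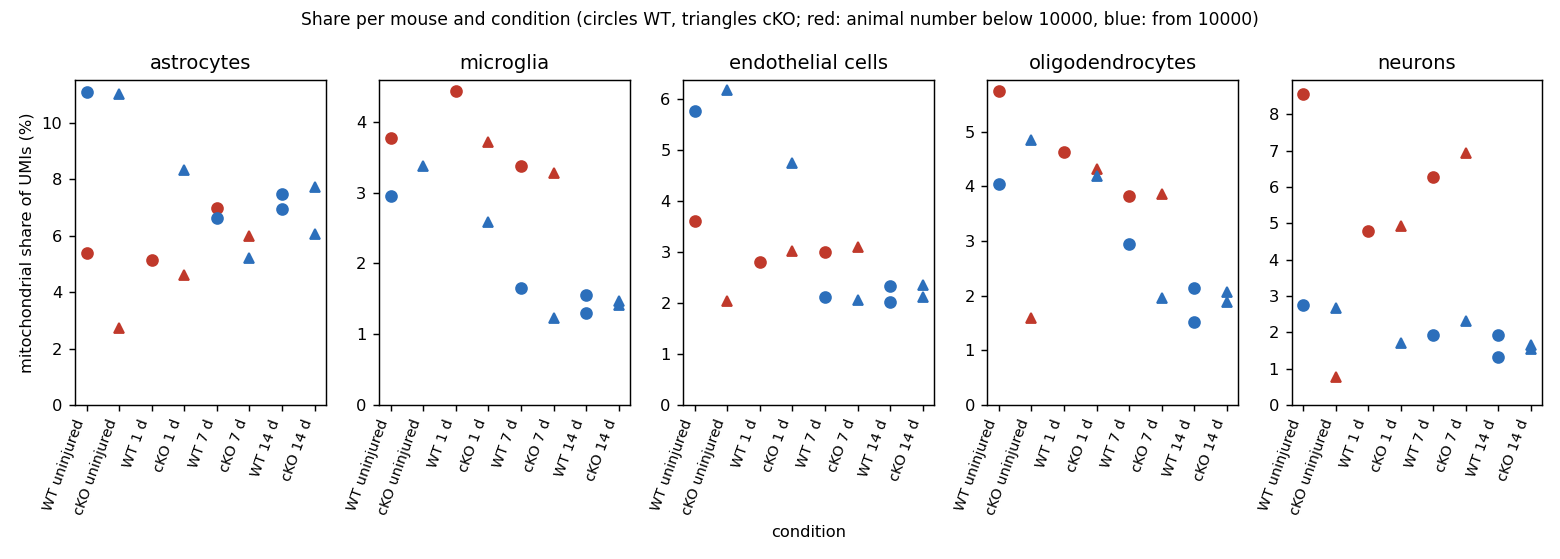
Mitochondrial share of UMIs (percent, vertical axes) per mouse in 5 cell classes by condition (horizontal axes), circles for WT, triangles for cKO, red for animal numbers below 10000 and blue from 10000. The 2 blue uninjured mice lie at 11.03 and 11.11% in astrocytes, above all injured mice, while the 2 red uninjured mice spread from 2.73 to 5.38%.

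The make-up of the astrocyte class varied among mice, and its clusters did not all go the same way. Among mice numbered from 10000 the class lay at 11.03 and 11.11% uninjured and at 5.21 to 8.33% injured. Cluster 7, the low-share cluster, gave 18.6 and 25.3% of astrocyte UMIs in those uninjured mice and 31.4 to 65.6% in the injured ones. Cluster 2, with the highest share, gave 31.4 and 32.7% in the uninjured and 8.35 to 16.8% in the injured ones. Cluster 5 gave 43.3 and 48.7% in the uninjured and 22.9 to 51.8% in the injured ones. Within Cluster 2 the shares overlapped, at 12.4 and 12.5% against 10.3 to 15.2%. Within Cluster 5 they lay at 12.11 and 13.1% against 7.81 to 12.09%, just without overlap. Within Cluster 7 they did not overlap either, at 5.82 and 6.12% against 2.54 to 4.88%. Below 10000 the Cluster 7 share ran the other way, at 1.57 and 4.20% uninjured and 3.96 to 6.35% injured, with overlap.

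Among injured mice, 4 of the 5 classes differed by animal numbering in their messengers. Those below 10000, which are the 4 shallow mice that share barcodes, had neuronal shares of 4.78 to 6.94%, and those from 10000 had 1.31 to 2.31%, without overlap, although only the latter include 14 d mice. The uninjured mice did not split this way: below 10000 the neuronal share was 0.770% in cKO uninjured replicate 1, the lowest of all 15 mice, and 8.57% in WT uninjured replicate 1, the highest, and from 10000 it was 2.68 and 2.76%. Depth, shared barcodes and animal numbering cannot be told apart in the injured mice. Neuronal messengers alone ran from 3.62 to 5.11% and from 0.584 to 1.18% in these mice. Oligodendrocytes differed in the same direction, with messengers at 2.81 to 3.48% and 0.717 to 1.51%, as did microglia at 2.35 to 3.42% and 0.494 to 0.935%, and endothelial cells at 1.61 to 1.83% and 0.800 to 1.32%. Astrocyte messengers overlapped, at 3.26 to 4.10% and 2.24 to 3.46%. The total microglial share also split, at 3.28 to 4.44% and 1.24 to 2.58%.

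For the genotype comparison, cKO minus WT after injury (6 against 5 mice), no member was called by edgeR in any class, and DESeq2 called 0 as well. The percent called over all genes was 0 in all 5 classes by edgeR, and by DESeq2 0.0085 in astrocytes and 0 in the other 4. At an unadjusted p under 0.05 there was 1 of 34 members in endothelial cells, 1 of 28 in neurons and 0 in the other 3, beside 2.83% of all genes in endothelial cells, 3.73% in neurons, 2.25% in astrocytes, 3.73% in microglia and 2.19% in oligodendrocytes. The median member lay at log2 0.63 in astrocytes, 0.36 in microglia, 0.37 in endothelial cells and 0.36 in oligodendrocytes, beside 0.15, 0.09, 0.04 and 0.06 for all genes. These medians joined unlike kinds. The 13 messengers alone had medians of 0.01, −0.17, 0.07 and −0.12 in the same order, and the transfer RNAs, most of them at few UMIs, had 2.25 (21 tested), 1.65 (15), 0.88 (19) and 1.21 (17). The 2 ribosomal RNAs had 0.32, −0.01, 0.33 and 0.05. In neurons the medians were 1.97 for members and 2.01 for all genes, with 0.47 for the messengers, 0.48 for the ribosomal RNAs and 2.33 for the transfer RNAs. With the DESeq2 size factors the neuronal medians became 0.30 for members and 0.25 for all genes, and after injury −0.53 and −0.17, and neuronal values are therefore best read against the median of all genes.

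The total share differed between genotypes by less than its SE in every class: −0.07 ± 1.82 percentage points in astrocytes, in which Ryk was targeted, −0.51 ± 0.55 in microglia, 0.39 ± 0.86 in endothelial cells, −0.24 ± 0.71 in oligodendrocytes and −0.32 ± 1.57 in neurons. In astrocytes the 6 cKO mice lay at 4.59 to 8.33% and the 5 WT mice at 5.14 to 7.49%. At 14 d, where all 4 mice are numbered from 10000, astrocytes had 6.95 and 7.49% in WT and 6.07 and 7.72% in cKO. Microglia then had 1.31 and 1.55% in WT and 1.41 and 1.48% in cKO, so the WT mice enclosed the cKO mice. Leaving out each mouse gave genotype differences of −0.77 to 0.55 in astrocytes, −1.10 to 0.45 in neurons, −0.55 to 0.080 in oligodendrocytes, −0.85 to −0.12 in microglia and 0.042 to 0.67 in endothelial cells.

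Among the 25 members with at least 1000 UMIs, those with the smallest p in this contrast were mostly transfer RNAs at low counts. The endothelial member under an unadjusted p of 0.05 was a rarer one, mt-Tl1 for leucine, at log2 2.67 ± 1.25 (SE, edgeR adjusted p = 1.00), with 0 to 18 UMIs per injured mouse. Among the more abundant members, the smallest p in astrocytes was that of mt-Ts2, at log2 3.25 ± 1.88 (SE, edgeR unadjusted p = 0.102, adjusted p = 1.00), with 0 to 760 CPM over the injured mice, and without WT 1 d replicate 1 it turned to −0.57. mt-Tm in oligodendrocytes stood at 2.61 ± 1.42, mt-Tp in endothelial cells at 2.46 ± 1.62 and mt-Td in microglia at 2.39 ± 1.80, each with an edgeR adjusted p of 1.00. Without WT 1 d replicate 1, mt-Tm turned to −0.35 and mt-Tp to −0.012, and mt-Td moved to 0.061. Without cKO 1 d replicate 2, mt-Tm turned to −0.23 and mt-Ts2 in astrocytes moved to 1.95. mt-Atp8 in neurons stood at 3.76 ± 1.59 (edgeR adjusted p = 0.769) and moved to −0.013 without WT 1 d replicate 1. That mouse is the only WT mouse at 1 d and among the least deeply sequenced.

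Whether the injury effect differed between genotypes was fitted as well. No member was called in any class, with 0% of all genes called. At an unadjusted p under 0.05 there were 7 of 28 members in neurons, 1 of 32 in oligodendrocytes and 0 in astrocytes, microglia and endothelial cells, beside 3.77% of all genes in neurons, 4.62% in oligodendrocytes, 2.19% in astrocytes, 5.32% in microglia and 3.21% in endothelial cells. In neurons the median was 2.83 for members (2.37 for messengers, 1.70 for ribosomal RNAs and 3.28 for transfer RNAs) and 1.72 for all genes. In astrocytes, microglia, endothelial cells and oligodendrocytes the members had medians of 0.99, 1.06, 0.51 and 0.90. All genes had 0.31, 0.43, 0.12 and 0.27 in that order. The messengers alone had 0.24, 0.55, 0.27 and 0.78, and the transfer RNAs 2.43, 1.79, 0.53 and 1.12.

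The nuclear partners of these transcripts were read from a pair of gene lists. Of 77 listed nuclear genes for subunits of the respiratory complexes, 71 to 74 were tested per class, and of 33 genes for replication, transcription and RNA handling of mitochondrial DNA, 14 to 27 were tested. None was called higher or lower in any of the 5 classes for injury or genotype in the main fit. After injury the fitted values of the subunit genes were below 0 for 74 of 74 in astrocytes (median log2 −0.81), 73 of 74 in endothelial cells (−0.56), 61 of 72 in oligodendrocytes (−0.32) and 71 of 71 in neurons (−1.86). The medians of all genes in these classes were −0.18, −0.07, −0.02 and −0.82. In microglia 50 of 74 were above 0 (median 0.22, beside 0.09 for all genes). The second list was more mixed after injury: 17 of 27 were not above 0 in astrocytes (median −0.37), 13 of 23 in endothelial cells (−0.04), 8 of 14 in oligodendrocytes (−0.19) and 13 of 16 in neurons (−1.16), and in microglia 10 of 18 were above 0 (0.36). These are counts of directions, given without the share of all genes below 0, and no gene of either list passed in the main fit. In neurons the median of all genes was itself −0.82 and depended on the size factors, as given with the genotype comparison. Over single omissions the call for Atp5a1 in neurons was unchanged in 12 of 15, at log2 −3.25 to −1.46. For Ndufb4 in astrocytes it was unchanged in 14 of 15, at −3.04 to −0.38.

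Among single nuclear genes, Atp5a1, the complex V alpha subunit, had the smallest p in neurons after injury, at log2 −2.82 ± 0.62 (SE, edgeR adjusted p = 0.123). Ndufb4 of complex I stood at −1.76 ± 0.54 in astrocytes (edgeR adjusted p = 0.834) and Ndufb5 of complex I at −0.90 ± 0.31 in endothelial cells (edgeR adjusted p = 0.663). Ndufa9 of complex I stood at −0.88 ± 0.44 in microglia (edgeR adjusted p = 0.519), and Ssbp1, which binds single-stranded mitochondrial DNA, at −1.84 ± 0.72 in oligodendrocytes (edgeR adjusted p = 0.771). Without WT 1 d replicate 1, Atp5a1 was at −1.46 and Ssbp1 at −0.71. Ndufb4 was at −0.38 without WT uninjured replicate 2, −1.05 without cKO uninjured replicate 2, −2.80 without WT 7 d replicate 2 and −3.04 without cKO 1 d replicate 2. Ndufb5 was at −0.55 and −0.58 without WT and cKO uninjured replicate 2 in turn.

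On the higher side after injury stood Grsf1, an RNA-granule protein, in microglia (4.02 ± 1.44, edgeR adjusted p = 0.333) and Twnk, the mitochondrial DNA helicase, in oligodendrocytes (3.36 ± 1.38, edgeR adjusted p = 0.771). Supv3l1, an RNA helicase of mitochondrial RNA decay, stood at 0.90 ± 0.51 in endothelial cells (edgeR adjusted p = 0.727). Trmt10c, part of the enzyme that cuts the 5′ ends of transfer RNAs, stood at 0.77 ± 0.69 in astrocytes (edgeR adjusted p = 0.878). Tfb2m, a mitochondrial transcription factor, stood at 0.18 ± 0.60 in neurons (edgeR adjusted p = 0.965). Without cKO uninjured replicate 2, Grsf1 was at 0.92, Supv3l1 at 0.41 and Trmt10c at 3.17, and without WT uninjured replicate 1 Twnk was at 5.73. Trmt10c turned to −0.11 without cKO 1 d replicate 2, and Tfb2m turned in sign under several single omissions, from −0.89 without WT 7 d replicate 2 to 3.19 without cKO uninjured replicate 1. These rest on few UMIs: 53 for Trmt10c, 76 for Twnk and 248 for Grsf1 over all mice of the class.

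Between genotypes after injury, Tfb2m stood at 2.72 ± 1.16 in astrocytes, Supv3l1 at 4.26 ± 1.27 in microglia and Atp5g2 of complex V at 2.19 ± 1.08 in oligodendrocytes, all with edgeR adjusted p of 1.00. Their counts over all mice of the class were low, at 106, 86 and 90 UMIs in that order, and Supv3l1 was seen in 9 of 14 mice. Uqcrc2 of complex III stood at 0.39 ± 0.26 in endothelial cells, and Atp5a1 at 3.34 ± 1.58 in neurons (edgeR adjusted p = 0.769). The lowest by p were Ndufa7 in astrocytes (−0.66 ± 0.47), Uqcrh of complex III in microglia (−0.57 ± 0.29), Grsf1 in endothelial cells (−0.53 ± 0.37), Twnk in oligodendrocytes (−1.34 ± 0.59) and Tfb2m in neurons (−0.72 ± 0.76). None passed the test. Without WT 1 d replicate 1, Tfb2m in astrocytes was at 1.08, Atp5a1 in neurons at 0.59, Uqcrc2 at 0.12 and Grsf1 at −0.17. Uqcrc2 and Grsf1 in endothelial cells changed sign without the 4 mice that share barcodes. Atp5a1 in neurons changed sign with the cell-name conditions, and these values are given in the last section. Without cKO 1 d replicate 2, Grsf1 was at −2.68 and Ndufa7 at −1.26, and without WT 14 d replicate 1 Uqcrh was at −0.30. Tfb2m was at 4.27 in astrocytes and turned to 1.41 in neurons without WT 7 d replicate 2, and was at −2.47 in neurons without cKO 1 d replicate 2.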

How the data were processed

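The authors made 10X Genomics 3′ libraries, aligned them with Cell Ranger to mm10 (GRCm38), and loaded them in R 4.1.2 and Seurat. Cells at 25% mitochondrial UMIs or above, or with 200 genes or fewer, were removed by the authors, who assigned 17 clusters, whose names are used as deposited. How doublets were treated is not given in the sources used here. The deposited values used here are UMI counts per gene and cell, not normalized. The mitochondrial percent per cell deposited by the authors equalled the value from the counts in 18203 of 18203 cells (within 1e-06). Columns of samples outside the series numbered 0.

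Shares were computed per mouse, and per cluster and mouse where at least 10 cells were present, and n is the number of mice. Intervals and floors would cover counting error only. Counts summed per mouse and class were tested with edgeR 4.0.16 (quasi-likelihood, TMM, filterByExpr, all 8 conditions in a single fit, R 4.3.3), with Benjamini-Hochberg adjustment over all genes tested. DESeq2 1.42.0 and further edgeR fits served the alternatives for these tests. The method was also run on simulated data, and no result of that run is given here. In the split of spread, values of combinations with at least 200 mitochondrial UMIs were used with 0.5 UMIs added. Sequences were read from GENCODE vM21 (GRCm38), and copies were found with blastn 2.17.0. Python 3.11.15 was used for shares and figures.

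Named members are all with at least 1000 UMIs, and, per comparison and class, the member among these with the smallest p. Of the listed nuclear genes, those with the smallest p on the higher side and on the lower side were named per comparison and class. mt-Tl1, below 1000 UMIs, was named after its values were seen. The members and lists were chosen with earlier results of these data known. Alternatives were DESeq2, no filter on low counts, at least 30 cells per mouse, cells with at least 1000 UMIs or under 20% mitochondrial UMIs, messengers only, the cell-name conditions, the animal numbering, a replicate block and leaving out each mouse. Labels give 2 mice per condition, so p-values measure the spread between few mice.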

Additional observations from a re-analysis of the deposited data

How the results depend on the processing

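Limits: each condition has at most 2 mice, most members with small p in the genotype contrast are transfer RNAs at few UMIs, the 25% ceiling trims Clusters 2 and 5, and the shallow mice (median 414 to 548 UMIs per cell) hold few UMIs of the rarer members. The cKO minus WT member counts stayed at 0 under all alternatives. The causes of the shifts below were not tested unless fewer mice or genes are named.

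The highest minus lowest cluster mean of the share, 10.9 percentage points, became 8.39 with only cells under 20% and 4.10 with messengers only, and Cluster 2 stayed highest, Cluster 5 second and Cluster 16 lowest under all 5 alternatives for it. The injured minus uninjured share became −4.20 in astrocytes and −3.39 percentage points in endothelial cells with only mice numbered from 10000. With messengers only it became 0.52 in microglia, −0.072 in endothelial cells and 0.37 in oligodendrocytes, and without the 4 mice that share barcodes −1.72 in microglia.

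Members called after injury, 0 in every class, became 8 in astrocytes, 4 in microglia, 21 in endothelial cells, 1 in oligodendrocytes and 2 in neurons with no filter on low counts (0.283, 0.459, 0.566, 0.209 and 0.0574% of all genes). They became 8, 0, 3, 1 and 7 with the animal numbering as a term, against 1.38, 0.345, 0.455, 0.661 and 4.2% of all genes. With only mice numbered from 10000 they became 26, 0, 16, 0 and 8, against 15.3, 0.00941, 2.11, 0.203 and 4.59% of all genes. DESeq2 called 3 in microglia (0.766% of all genes) and 0 elsewhere. Leaving out each mouse gave 0 to 7 in astrocytes and 0 to 8 in endothelial cells (both highest without WT uninjured replicate 1, against 0.66 and 0.713% of all genes), 0 to 1 in microglia (1 without cKO 1 d replicate 2, against 0.0985%) and 0 to 1 in neurons (1 without cKO uninjured replicate 1 and 1 without cKO 1 d replicate 2, against 0.401 and 0.45%).

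With the replicate number as a block, 0 members were called in all classes and both comparisons, beside, after injury, 0.151% of all genes in microglia, 0.058% in oligodendrocytes, 0.0781% in neurons and 0 in astrocytes and endothelial cells, and for genotype 0.0085% in astrocytes and 0 in the other 4. The numbers were not taken to pair the mice, since not every pair correlated above 0.1 in any class: same-numbered mice did so in 10 of 21 pairs in astrocytes, 6 of 15 in microglia, 10 of 21 in endothelial cells, 15 of 21 in oligodendrocytes and 7 of 21 in neurons.

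Single genes that changed sign did so at values that passed no test. In cKO minus WT, without the 4 mice and with only mice numbered from 10000 in turn, the log2 differences were −0.63 and −0.65 for mt-Ts2 in astrocytes, −0.18 and −0.19 for mt-Tp, −0.077 and −0.084 for Uqcrc2 and 0.0071 and 0.0080 for Grsf1 in endothelial cells, −0.049 and −0.055 for mt-Td in microglia, −0.60 and −0.60 for mt-Tm in oligodendrocytes, and −0.24 and −0.24 for mt-Atp8 in neurons. mt-Atp8 in neurons was at −0.013 with at least 30 cells per mouse. With the cell-name conditions, cKO minus WT in neurons was −0.39 for mt-Atp8, −0.13 for Atp5a1 and 1.67 for Tfb2m, and injured minus uninjured was 0.19 for mt-Co2 in astrocytes and −1.01 for Tfb2m in neurons. Without cells with shared barcodes Tfb2m in neurons was at 1.90 (genotype) and −1.15 (injury), and without the 4 mice at −0.095 (injury). Leaving out each mouse, cKO minus WT ran from −2.47 to 1.41 for Tfb2m and −0.013 to 4.48 for mt-Atp8 in neurons, −0.35 to 3.21 for mt-Tm in oligodendrocytes, −0.012 to 2.65 for mt-Tp in endothelial cells and −0.57 to 3.56 for mt-Ts2 in astrocytes. Injured minus uninjured ran from −0.89 to 3.19 for Tfb2m in neurons, −0.11 to 3.17 for Trmt10c and −2.19 to 0.22 for mt-Co2 in astrocytes.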
